A study of Mus musculus with 8 samples.

Results

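The circadian clock genes *Arntl*, *Clock*, *Npas2*, *Per1*, *Per2*, *Per3*, *Cry1*, *Cry2*, *Bhlhe40* and *Dbp* were examined in sorted mouse gonadotropes, the pituitary cells that make luteinizing hormone and follicle-stimulating hormone. They were found by symbol in a gene count table, where each of the 10 genes was exactly 1 of 55523 entries. All 10 had enough counts to be tested.

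The cells came from the pituitaries of Ad4BP-BAC-EGFP mice, in which an EGFP reporter on a bacterial artificial chromosome of *Nr5a1* (also called Ad4BP) marks the cells that use this gene, and EGFP-expressing cells were sorted for mRNA sequencing from total RNA. There were 4 female and 4 male samples, all of the same transgenic genotype and without further treatment in the labels. Age, hour of collection, stage of the oestrous cycle and the number of animals behind a sample were not given in the sources used here, so p-values measure only the spread between these samples, which may be technical. The study left male replicate 1 out of its own analysis because its expression pattern differed from that of the other males. It is therefore shown apart here, and the sexes were compared with 4 female samples and male replicates 2 to 4.

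The mammalian clock is a feedback loop of transcription factors that runs in almost every cell. CLOCK or its relative NPAS2 pairs with BMAL1, the product of *Arntl*, and the pair switches on genes that carry an E-box in their promoters, among them the *Per* and *Cry* genes, whose proteins return to the nucleus and shut their own activators off. BHLHE40 (DEC1) also represses at E-boxes, and DBP, a product of the loop, carries the rhythm to output genes through D-boxes. In mouse tissues *Arntl* RNA peaks at a time of day opposite to that of *Dbp*, so the levels of these genes depend on the hour at which a tissue is taken. In gonadotropes the clock has been studied for its place in the timing of gonadotropin release.

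Total counts ran from 18774578 to 31302588 per sample, so that 3 counts, taken as the floor of detection, stood for 0.0958 to 0.160 CPM (counts scaled to a library of 1000000 counts), a floor that covers counting error only. None of the 29 marker genes examined for pituitary cell types was at 0 in all samples. The 5 gonadotrope markers (*Lhb*, *Fshb*, *Cga*, *Gnrhr*, *Nr5a1*) came to 21488 to 34863 CPM among females. Among male replicates 2 to 4 they came to 67930 to 75717 CPM. Male replicate 1 had 28423 CPM, within the female range. Taken singly, *Lhb*, *Cga* and *Gnrhr* overlapped between females and male replicates 2 to 4 (adjusted p = 0.189, 0.187 and 0.318 by edgeR). Of the 29 markers 2 passed the adjusted threshold in edgeR, *Fshb* with males higher (log2 fold change 3.13, adjusted p = 0.0449) and the stem cell marker *Sox9* with males lower (−1.02, adjusted p = 0.0417), against 2.34% of all genes. *Nr5a1*, the gene behind the sort, had values in the other order, 862 to 1266 CPM in females and 584 to 801 CPM in those males (adjusted p = 0.130 by edgeR), and 16.3 CPM in male replicate 1. RNA of other hormone cells was present as well. The somatotrope markers *Gh* and *Ghrhr* came to 12397 to 57867 CPM among females, and to 65338 to 142305 CPM among male replicates 2 to 4. The thyrotrope marker *Tshb* came to 20.9 to 83.5 CPM and 235 to 339 CPM. Male replicate 1 had 30152 CPM and 82.7 CPM, both within the female ranges. *Ghrhr* overlapped between the sexes and *Gh* did not. Neither these nor *Tshb* passed (adjusted p = 0.373, 0.289 and 0.0525 by edgeR). In these bulk samples, fewer cells of a type and less RNA per cell cannot be told apart.

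Promoters of several clock genes hold short elements through which one arm of the loop reads another, and 4 that hold an E-box, E-prime box, D-box or ROR element are printed here. RefSeq promoters (build GRCm38.p6, 250 bases before to 50 after each start) were matched for 8 of the 10 genes, 12 promoters in all. *Per2* and *Bhlhe40* had no entry. Both strands were searched for the E-box CACGTG, the E-prime box CACGTT, the D-box TTATGTAA or TTACGTAA, the ROR element TAGGTCA or TGGGTCA, the cyclic AMP response element TGACGTCA and its shorter form TGACG, which every TGACGTCA also contains. In the sequences below, 5′ to 3′ on the strand of the gene, capitals mark the E-box, E-prime box, D-box and ROR element, and TGACG is left in lower case.
*Arntl*, second start, chr7:113207261-113207560, plus strand: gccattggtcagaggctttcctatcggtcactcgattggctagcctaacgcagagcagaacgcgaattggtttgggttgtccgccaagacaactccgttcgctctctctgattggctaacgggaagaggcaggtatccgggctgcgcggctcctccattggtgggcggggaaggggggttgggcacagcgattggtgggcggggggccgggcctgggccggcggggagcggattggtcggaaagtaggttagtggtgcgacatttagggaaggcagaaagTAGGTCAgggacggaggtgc
*Per1*, first start, chr11:69098699-69098998, plus strand: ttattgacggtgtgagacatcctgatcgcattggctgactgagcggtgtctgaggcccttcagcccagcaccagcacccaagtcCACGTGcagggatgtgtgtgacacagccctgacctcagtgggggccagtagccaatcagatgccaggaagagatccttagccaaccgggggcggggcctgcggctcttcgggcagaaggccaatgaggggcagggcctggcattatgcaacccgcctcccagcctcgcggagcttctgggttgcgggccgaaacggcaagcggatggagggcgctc
*Per3*, chr4:151044616-151044915, minus strand: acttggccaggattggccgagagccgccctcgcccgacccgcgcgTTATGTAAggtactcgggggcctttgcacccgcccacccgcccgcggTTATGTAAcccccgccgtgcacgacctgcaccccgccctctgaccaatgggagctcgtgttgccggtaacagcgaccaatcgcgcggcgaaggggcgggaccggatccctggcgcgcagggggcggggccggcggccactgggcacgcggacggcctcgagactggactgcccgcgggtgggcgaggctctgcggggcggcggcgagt
*Cry1*, chr10:85185005-85185304, minus strand: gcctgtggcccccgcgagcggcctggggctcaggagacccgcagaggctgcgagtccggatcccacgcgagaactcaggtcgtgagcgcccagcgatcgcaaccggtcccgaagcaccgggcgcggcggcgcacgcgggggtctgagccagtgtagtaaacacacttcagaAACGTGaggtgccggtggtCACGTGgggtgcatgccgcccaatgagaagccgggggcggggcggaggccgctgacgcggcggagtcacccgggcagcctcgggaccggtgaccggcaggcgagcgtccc

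An E-box lay 166 bases before the first start of *Per1* and 60 bases before the start of *Cry1*, and 7.15% of all 32851 promoters of this length held one. *Cry1* also had an E-prime box 79 bases before its start, and *Cry2* had one 166 bases before its own, against 4.68% of all promoters. *Per3* carried 2 D-boxes, 205 and 158 bases before its start, an element found in 1.06% of promoters. The second promoter of *Arntl* held a ROR element, the site through which ROR and REV-ERB receptors act, at base 31 of the transcript, against 6.45% of promoters. The short form TGACG was present in promoters of *Per1*, *Cry1* and *Cry2* and in 20.8% of all promoters, while the full cyclic AMP response element was in 0 of the 12 promoters and in 1.79% of all. No searched element was found in the 3 promoters of *Clock*, in those of *Npas2* and *Dbp* or in the first promoter of *Arntl*, which says only that these letters are not in the 300 bases searched. The matches are descriptions, and none of them was tested for binding.

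All 10 clock genes were detected in all 8 samples, with counts from 53 for *Npas2* to 6329 for *Bhlhe40*. Between the sexes, 0 of 10 passed the adjusted threshold of 0.05 in edgeR's quasi-likelihood test, in which 2.34% of 20152 tested genes passed. At an unadjusted p under 0.05, 1 of 10 passed, against 19.9% of all genes. That gene was *Per2*, whose level in males was 2.33 times that in females. DESeq2, run as an alternative, called 1 of 10, again *Per2*, against 9.71% of 23023 genes. The samples of the sexes did not overlap for 2 of 10, *Per2* with males higher and *Per3* with males lower, against 22.3% of all genes in either direction. Thus none of these shares stood clearly above its background. The median log2 fold change over the 10 genes was −0.11 and over all genes tested −0.03. The median size of the change, regardless of sign, was 0.16 for the clock genes and 0.41 for all genes.

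**Figure D1:**
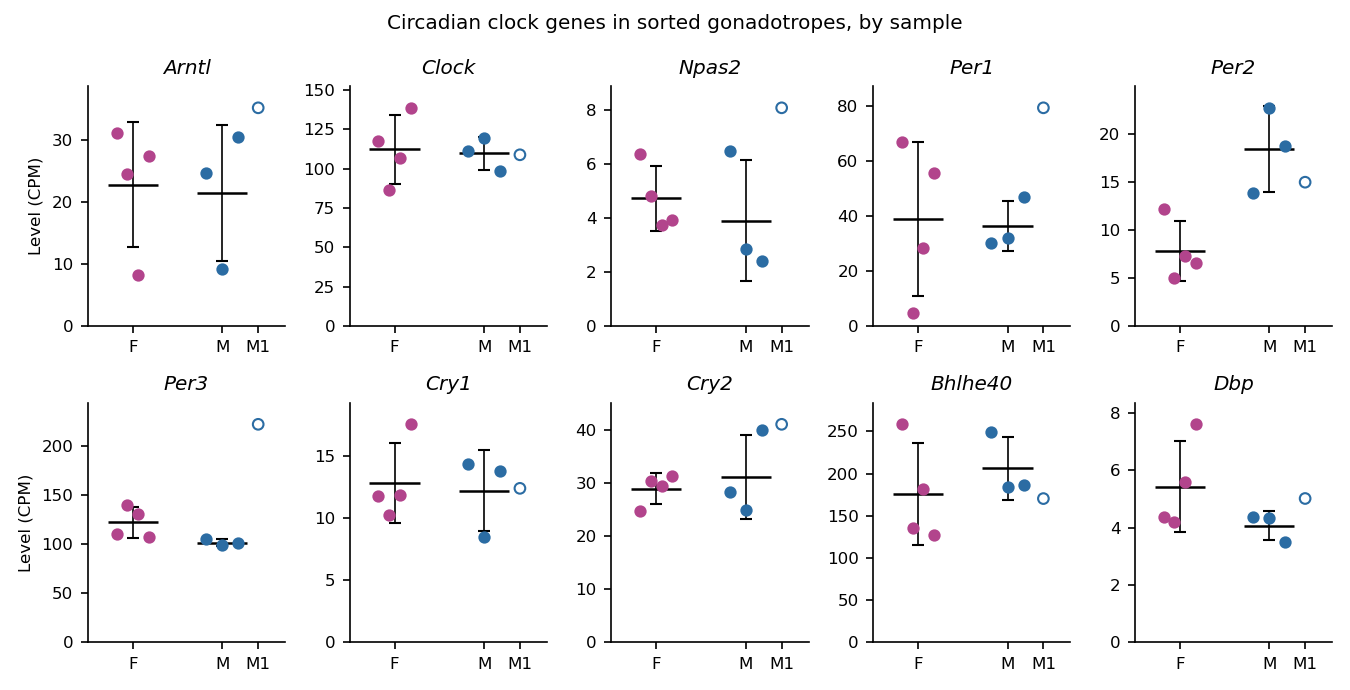
Level of each clock gene in CPM (vertical axis) in female samples (F), male replicates 2 to 4 (M) and male replicate 1 (M1, open circle); lines and bars are the mean and SD of F and M. *Per2* has its 3 male samples between 13.8 and 22.7 CPM, above all 4 females, and *Per1* has a single female sample at 4.68 CPM.

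To set the genes against each other, CPM were divided by the exon length of each gene (GENCODE M21 exons, GRCm38), in female samples and male replicates 2 to 4. The entries bear names of the kind that transcript assembly gives, so the exons counted may differ from these. The order below therefore holds for these lengths only. *Bhlhe40* stood highest with a median of 39.0 CPM per kb (27.0 to 54.9 over the 7 samples). *Per3* followed with 11.2 (10.3 to 14.6), and *Clock* with 8.10 (6.29 to 10.1). The ranges of these neighbours, *Bhlhe40* and *Per3* and likewise *Per3* and *Clock*, did not overlap, and the order was the same in all 7 samples. Below them every gene overlapped its neighbour in range. *Per1* had a median of 5.65 CPM per kb (0.832 to 11.9), *Cry2* 4.66, *Cry1* 3.55 and *Arntl* 3.28. The lowest medians on this scale were those of *Per2* with 2.09, *Dbp* with 1.46 and *Npas2* with 0.821 CPM per kb. *Dbp* was above *Npas2* in each of the 7 samples although their ranges overlapped, and *Per2* was above *Dbp* in only 4 of them.

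**Figure D2:**
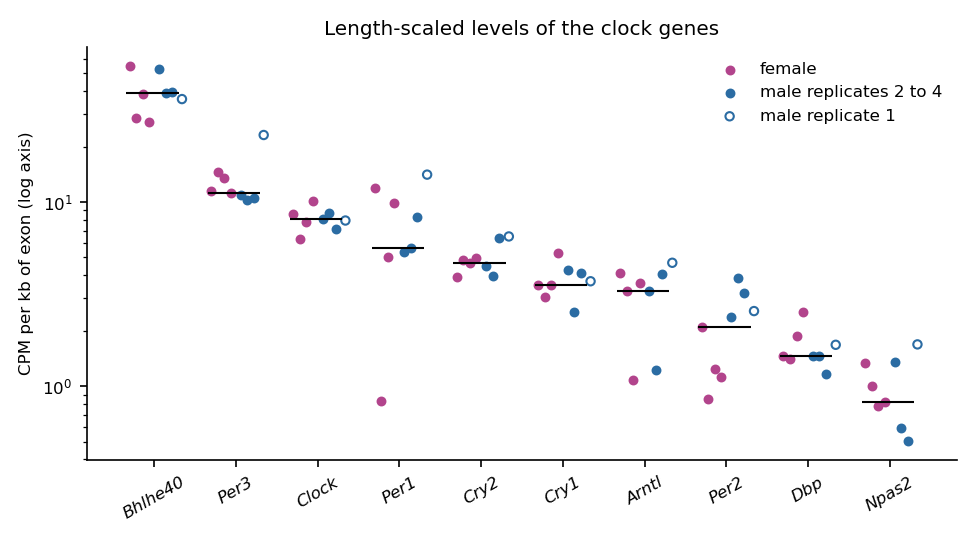
CPM per kb of exon on a log axis for each clock gene, ordered by the median over female samples and male replicates 2 to 4 (line); each point is a sample. *Bhlhe40* lies between 27.0 and 54.9 CPM per kb, clear of all the others in these 7 samples, and from *Clock* downwards neighbouring genes overlap.

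Of the activators, *Clock* was the most even, with a 1.61-fold range over the 7 samples, against 2.68-fold for *Npas2* and 3.81-fold for *Arntl*. *Arntl* (chr7:113207465-113314126, plus strand), which encodes BMAL1, the obligate part of the activator, had 31.1, 24.6, 8.16 and 27.4 CPM in female replicates 1 to 4 and 24.7, 9.17 and 30.5 CPM in male replicates 2 to 4. The low samples were replicate 3 of each sex, and a gap of 2.68-fold separated them from the next sample. Female and male means were 22.8 ± 10.1 (SD, n = 4) and 21.4 ± 11.0 CPM (SD, n = 3). On the log2 scale males differed from females by −0.12 (95% interval −1.41 to 1.17, adjusted p = 0.939 by edgeR), so that a difference of over 2-fold in either direction lay inside the interval. The sign depended on single samples, and the estimate was 0.25 without male replicate 3.

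*Clock* (chr5:76209868-76304792, minus strand), the usual partner of BMAL1, had 118, 86.4, 107 and 139 CPM in females and 111, 120 and 98.5 CPM in males. All male samples lay inside the female range. Males differed by −0.07 on the log2 scale with an interval of −0.49 to 0.36 (adjusted p = 0.894 by edgeR), the narrowest of the activators. *Npas2* (chr1:39193731-39363236, plus strand), which can stand in for *Clock*, was near the low end with 53 to 185 counts. It had 6.37, 4.83, 3.74 and 3.93 CPM in females and 6.46, 2.83 and 2.41 CPM in males, the sexes overlapping, with a log2 fold change of −0.31 (interval −1.25 to 0.63, adjusted p = 0.745 by edgeR). Leaving out a sample moved this estimate to between −0.87 (without male replicate 2, adjusted p = 0.2998) and −0.061 (without male replicate 4). *Arntl2*, a paralog of *Arntl* and no member of the list, was listed at a median of 0.133 CPM per kb, below every clock gene.

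Genes of a pattern like that of *Arntl* were then searched for, so that a shared low pair of samples follows from how they were picked. Over the 7 samples, the genes whose pattern on the log2(CPM + 1) scale was most like that of *Arntl* among 20142 searched were *Gm38227* (Pearson r = 0.993), *Crmp1* (0.982) and *Trrap* (0.980), and 20 genes exceeded 0.95. These correlations describe 7 samples from the same libraries and are given without a test. How many genes would exceed 0.95 by chance was not worked out. For *Crmp1* the levels were 6.57 CPM (female replicate 3) and 8.57 CPM (male replicate 3), and the 5 others lay between 50.4 and 55.7 CPM. *Trrap* had 13.7 and 12.8 CPM in those samples, against 70.8 to 97.2 CPM. Because *Arntl* fell into separate clusters of 2 and 6 samples, where a pooled correlation would mainly restate the gap between them, its relation to the other clock genes was not tested.

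Such isolated low samples were common in the table and were noticed after its values were seen. Of 10894 genes with a median of at least 200 counts, 1465 (13.4%) had a sample below 0.2 times the median of all 8, and 889 (8.16%) had a sample below 0.1 times it. Each of the 8 samples was such a low sample for between 2.31% and 3.41% of the genes. Among the clock genes *Per1* was the only case at 0.2 times the median, with its lowest sample at 11.9%, and the lowest *Arntl* sample was at 31.4%. *Csnk1d*, a kinase of PER proteins, was listed at 2.32 CPM in male replicate 4 while the rest had 149 to 201 CPM. *Nr5a1* and *Tsc22d3* in male replicate 1 (16.3 and 2.14 CPM) were low samples of this kind too. What gives rise to them was not tested, and the levels of *Arntl*, *Per1*, *Nr5a1* and *Tsc22d3* are to be read with them.

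**Figure D3:**
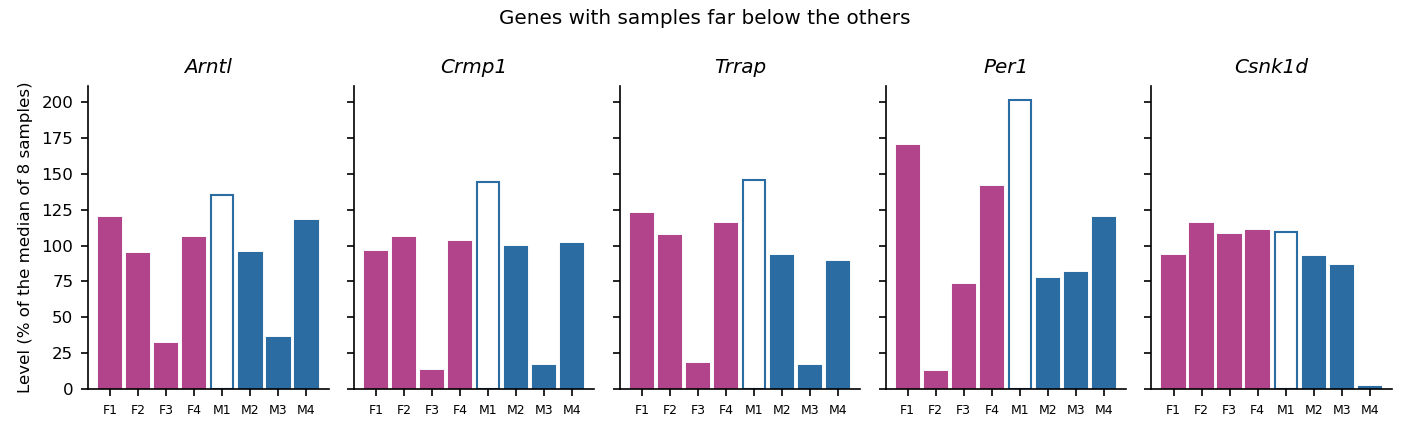
Level in each sample (F1 to F4 female, M1 to M4 male, M1 open) as a percentage of the gene's median over the 8 samples (vertical axis), for *Arntl*, the similar genes *Crmp1* and *Trrap*, *Per1*, and the clock kinase gene *Csnk1d*. *Arntl*, *Crmp1* and *Trrap* are low in the same samples, F3 and M3, while *Per1* is low in F2, at 11.9% of its median.

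The *Per* genes, the repressors whose RNA answers both the loop and outside signals, differed in how they varied. *Per1* (chr11:69095217-69109960, plus strand) had 66.8, 4.68, 28.4 and 55.4 CPM in females and 30.3, 31.8 and 47.0 CPM in male replicates 2 to 4. Its 14.3-fold range over these 7 samples, the widest of the clock genes, rested on female replicate 2, which held 96 counts. Without that sample the range was 2.35-fold, under those of *Arntl* (3.81), *Per2* (3.46) and *Npas2* (2.68) in the same 6 samples. The sex difference was −0.12 (log2) with an interval of −1.86 to 1.62 (adjusted p = 0.956 by edgeR), and without female replicate 2 it was −0.47 (adjusted p = 0.575). Without female replicate 1, in contrast, it was 0.30.

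*Per2* (chr1:91415982-91459324, minus strand), the repressor on which the loop most depends, showed the largest sex difference of the 10 genes. Females had 12.2, 4.98, 7.30 and 6.57 CPM, and male replicates 2 to 4 had 13.8, 22.7 and 18.8 CPM. Every male sample was above every female sample, male replicate 1 included with 14.97 CPM. Means were 7.77 ± 3.13 (SD, n = 4) and 18.4 ± 4.46 CPM (SD, n = 3), a log2 fold change of 1.22 (SE 0.33, interval 0.44 to 1.99), or 2.33-fold (1.36 to 3.98). With an unadjusted p of 0.00735 and an adjusted p of 0.102 by edgeR, it did not pass the threshold over all genes. The two-sided exact permutation test over the 35 assignments of these samples gave p = 0.0571, where 0.0286 is the smallest p possible. DESeq2 gave a log2 fold change of 1.23 with an adjusted p of 0.0201, and over all alternatives adjusted p ranged from 0.0201 to 0.274 with males higher in each.

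*Per3* (chr4:151003652-151044665, minus strand) was the most even clock gene, with a 1.42-fold range over the 7 samples. It had 111, 140, 130 and 108 CPM in females and 105, 98.8 and 101 CPM in male replicates 2 to 4. The 3 male samples lay just below the lowest female, with means of 122 ± 15.7 and 102 ± 3.19 CPM. The log2 fold change was −0.30 (SE 0.14, interval −0.64 to 0.04), with an adjusted p of 0.308 by edgeR and p = 0.0857 in the exact permutation test. Male replicate 1 had 222 CPM, 1.58 times the highest of the other 7 samples, and with it included the estimate turned to 0.11 (adjusted p = 0.9501). Its D-boxes, printed above, are sites for DBP and its relatives TEF and HLF.

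The cryptochromes, the repressors that bind CLOCK and BMAL1 directly, differed little. *Cry1* (chr10:85131700-85185064, minus strand), the gene with both an E-box and an E-prime box, had 11.8, 10.2, 11.8 and 17.6 CPM in females and 14.3, 8.46 and 13.8 CPM in males. The sexes overlapped, with a log2 fold change of −0.11 (interval −0.75 to 0.54, adjusted p = 0.885 by edgeR). *Cry2* (chr2:92403646-92434043, minus strand) had 24.7, 30.4, 29.4 and 31.3 CPM in females and 28.4, 25.0 and 40.1 CPM in males. Its log2 fold change was 0.07 (interval −0.42 to 0.57, adjusted p = 0.897 by edgeR), and it turned to −0.14 under scaling by library size alone and to −0.16 without male replicate 4. The upper bounds of these intervals stood for male levels of 1.45 times (*Cry1*) and 1.48 times (*Cry2*) the female ones, and the lower bounds for 0.594 and 0.748 times.

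*Bhlhe40* (chr6:108660629-108666925, plus strand), the E-box repressor that is also induced by many stimuli, had 258, 135, 182 and 127 CPM in females and 249, 184 and 186 CPM in males. The highest female stood above all males and the other 3 below them. The log2 fold change was 0.20 (interval −0.43 to 0.83, adjusted p = 0.754 by edgeR), or −0.02 under scaling by library size alone. Its counts were 2772 to 6329 per sample, and the coefficient of variation among females was 34.2%.

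*Dbp* (chr7:45705088-45710203, plus strand), the output gene, was low in all samples, with 77 to 182 counts. It had 4.36, 4.195, 5.59 and 7.61 CPM in females and 4.37, 4.34 and 3.50 CPM in males. Female replicates 3 and 4 were the higher ones and the rest overlapped. The log2 fold change was −0.45 (SE 0.27, interval −1.08 to 0.18, adjusted p = 0.420 by edgeR), and its direction was the same in each alternative. *Dbp* shares 539 exon bases, 18.01% of its exon length, with *Sphk2* on the opposite strand, which had 735 to 2493 counts. Default counting ignores strand, so strand does not separate reads from the shared bases. Whether such reads were counted for either gene, or for none, cannot be seen from the counts. The genes most like *Dbp* over the 7 samples, again without a test, were *Mreg* (r = 0.992), *Ptchd1* (0.982) and *Taf5* (0.972), and 10 genes exceeded 0.95.

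Since *Dbp* and *Arntl* peak at opposite hours, their difference in each sample, log2(CPM + 1) of *Dbp* minus that of *Arntl*, was taken as a reading in which opposite changes add up. The values were −2.58, −2.30, −0.48 and −1.72 in females and −2.26, −0.93 and −2.81 in male replicates 2 to 4. The samples least negative in each sex were the replicates 3, where *Arntl* was low. Means were −1.77 ± 0.93 (SD, n = 4) and −1.998 ± 0.97 (SD, n = 3), and the sexes did not differ beyond this spread (difference −0.23, two-sided exact permutation test, p = 0.714). In female replicate 3, *Dbp* was at 5.59 CPM and *Per2* at 7.30 CPM, and in male replicate 3, *Dbp* was at 4.34 CPM and *Per2* at 22.7 CPM, so that *Per2* differed between the low *Arntl* samples.

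**Figure D4:**
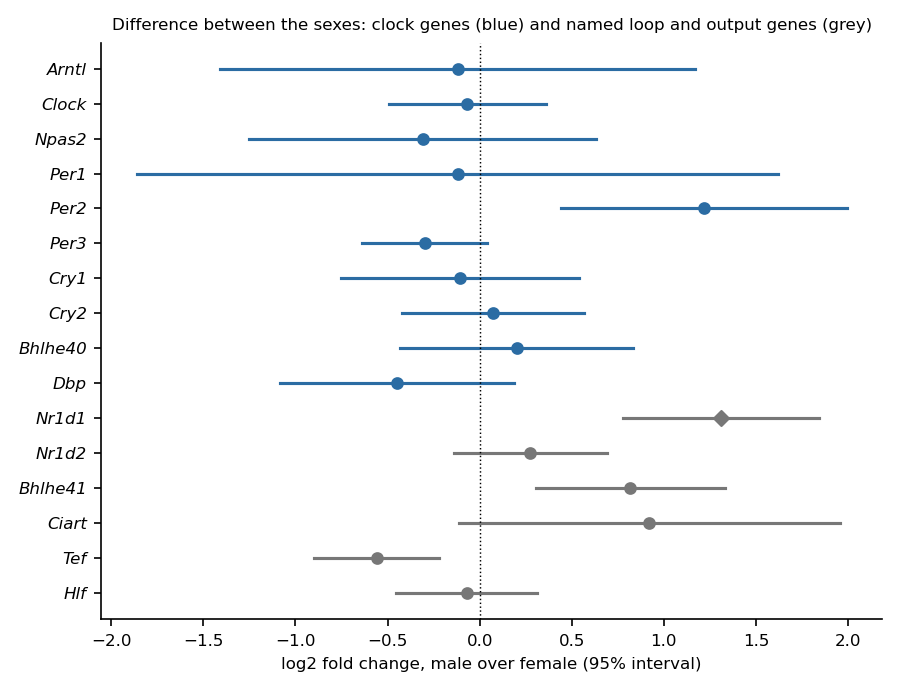
Sex difference (male over female, log2 fold change, horizontal axis) with its 95% interval from edgeR for the 10 clock genes (blue) and for named loop and output genes (grey); the diamond marks an adjusted p under 0.05. *Per2*, at 1.22, is the only clock gene whose interval excludes 0, and *Nr1d1*, at 1.31, is the only gene with a diamond.

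The other genes of the pathway were taken from a list of 23: receptors and repressors of the loop, kinases and ubiquitin ligases of clock proteins, and output genes. In edgeR's test 1 of 23 passed the adjusted threshold, with males higher, against 2.34% of all genes, and 9 of 23 had an unadjusted p under 0.05, 6 with males higher and 3 with males lower. Against the 19.9% of all genes at that unadjusted threshold, the share in the list was larger, although the list was chosen with earlier results known and was not tested as a set. The samples of the sexes did not overlap for 10 of 23, against 22.3% of all genes. The median log2 fold change was 0.08. By role, the 10 loop genes held the gene called and 5 at the unadjusted threshold, the 7 kinases and ligases 0 called and 3 at the unadjusted threshold, and the 6 output genes 0 called and 1 at it. DESeq2 called 8 of 23, against 9.71% of all genes.

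The gene called was *Nr1d1*, which encodes REV-ERBα, a receptor that represses *Arntl* through ROR elements. It had 74.4, 49.6, 76.6 and 48.4 CPM in females and 194, 139 and 140 CPM in male replicates 2 to 4. All male samples, male replicate 1 with 106 CPM included, were above all females. The log2 fold change was 1.31 (SE 0.23, interval 0.78 to 1.84, adjusted p = 0.0417 by edgeR). The call did not hold when any 1 of the 7 samples was left out (adjusted p from 0.0622 to 0.127, log2 fold change from 1.14 to 1.44), and over all 18 alternatives adjusted p ran from 0.000111 to 0.234. *Nr1d1* shares 263 exon bases, 8.55% of its exon length, with *Thra* on the opposite strand. *Arntl* itself, as given above, had overlapping sexes.

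*Nr1d2*, the related receptor REV-ERBβ, differed by 0.28 (log2) (adjusted p = 0.456 by edgeR). *Bhlhe41* (DEC2), the paralog of *Bhlhe40*, had 61.4, 86.5, 91.4 and 70.2 CPM in females and 175, 138 and 106 CPM in males, without overlap, and a log2 fold change of 0.82 (interval 0.31 to 1.33, adjusted p = 0.0972). It overlaps an antisense transcript in its exons. *Ciart*, a repressor of the BMAL1 and CLOCK pair, was at 0.92 (adjusted p = 0.304). Of the D-box factors related to DBP, *Tef* had 107, 138, 117 and 112 CPM in females and 85.0, 86.8 and 75.6 CPM in males, again without overlap, with a log2 fold change of −0.56 (interval −0.90 to −0.22, adjusted p = 0.0916), and *Hlf* was at −0.07 (adjusted p = 0.869). In edgeR *Bhlhe41*, *Ciart* and *Tef* thus missed the adjusted threshold. DESeq2 called *Bhlhe41* (adjusted p = 0.0234) and *Tef* (0.0150). In edgeR, adjusted p for *Tef* was 0.0420 under scaling by library size alone, which moves the median of all genes from −0.03 to −0.24, and 0.828 with all 8 samples, where male replicate 1 (154 CPM) was above every female and the log2 fold change was −0.24.

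**Figure D5:**
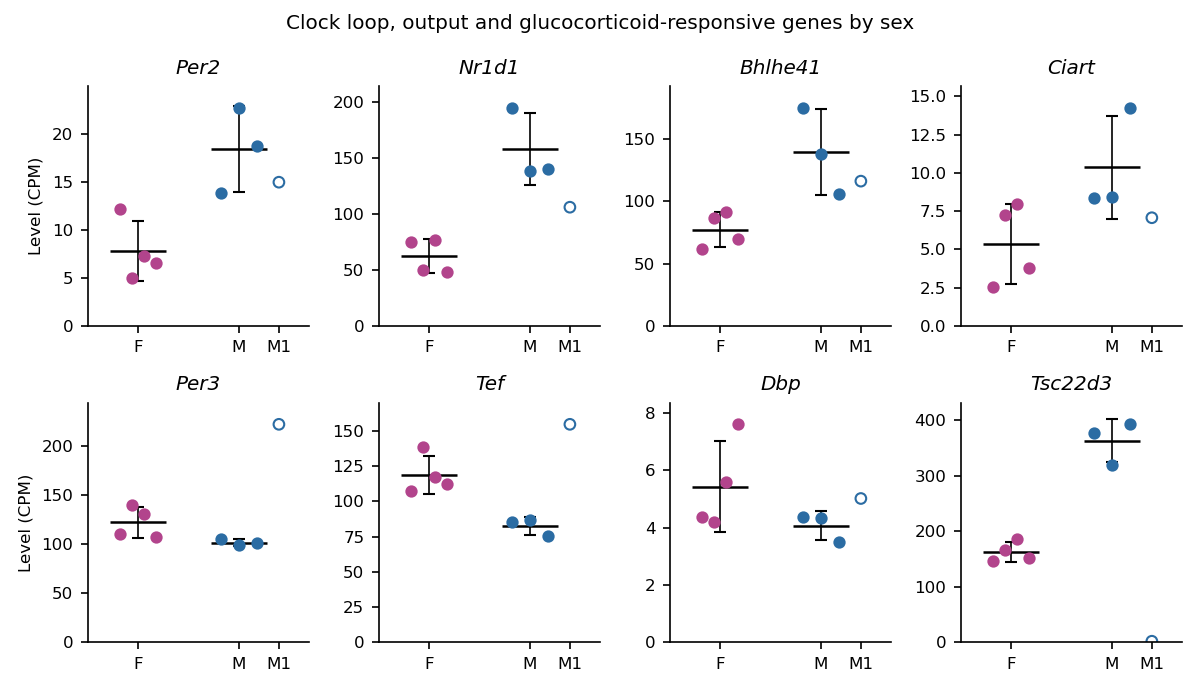
CPM (vertical axis) of clock, loop and output genes and of *Tsc22d3* in females (F), male replicates 2 to 4 (M) and male replicate 1 (M1, open circle), with mean and SD of F and M. *Nr1d1* runs from 48.4 to 76.6 CPM in females and from 139 to 194 CPM in M, and M1 stands apart in *Per3* (222 CPM), *Tef* (154 CPM) and *Tsc22d3* (2.14 CPM).

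*Per1* and *Bhlhe40* are also induced by stimulation of cells, and both *Per1* and *Per2* by glucocorticoids, so genes of these responses were read in the same samples. Of 12 immediate early and stress genes, 0 passed the adjusted threshold in edgeR, 1 had an unadjusted p under 0.05 (19.9% of all genes) and DESeq2 called 0 (9.71% of all genes). The gene at the unadjusted threshold was *Egr1*, with 2073 to 2874 CPM in females and 1516 to 1937 CPM in male replicates 2 to 4 (log2 fold change −0.51, adjusted p = 0.135 by edgeR). The 12 estimates ran from −0.51 to 1.01, the highest being those of the heat shock genes *Hspa1a* (0.98) and *Hspa1b* (1.01), and *Fos* lay between 6280 and 8022 CPM in all 8 samples. These genes were picked after their values were seen. Of 8 glucocorticoid-responsive genes, 1 passed, *Tsc22d3* (GILZ), which had 147, 166, 187 and 153 CPM in females and 378, 320 and 393 CPM in male replicates 2 to 4, a log2 fold change of 1.13 (SE 0.14, adjusted p = 0.0201 by edgeR). The call was lost without female replicate 2, male replicate 2 or male replicate 4 (adjusted p = 0.0561, 0.0713 and 0.0526), with log2 fold changes of 1.16, 1.11 and 1.06, and with all 8 samples (log2 fold change 0.74, adjusted p = 0.880), where male replicate 1 is a low sample. Samples below 0.2 times the median occurred in 4 of these 8 genes and in 3 of the 12 immediate early genes. The median log2 fold change of the 8 was 0.91, and 3 of 8 had an unadjusted p under 0.05, all higher in males. As for the other lists, the shares over all genes were 2.34% (adjusted) and 19.9% (unadjusted), and the list was not tested as a set. Their part in the male levels of *Per2* and *Nr1d1* was not tested. The same holds for the stem cell markers *Sox2* and *Sox9* and for the gonadotrope, somatotrope and thyrotrope markers given above. The *Sox2* and *Sox9* sum ranged over 243 to 382 CPM in females and 138 to 172 CPM in male replicates 2 to 4. Male replicate 1 had 304 CPM, within the female range.

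Male replicate 1 was above the other 7 samples for 5 of the 10 clock genes, within their range for 5 and below it for 0. Over all 20152 genes tested, it was above the other 7 for 20.7% and below them for 19.1%. It had 35.2 CPM of *Arntl*, 8.08 of *Npas2*, 79.3 of *Per1*, 222 of *Per3* and 41.1 of *Cry2*. The margin was widest for *Per3*. It lay within the range of the other samples for *Clock* with 109 CPM, *Per2* with 14.97, *Cry1* with 12.4, *Bhlhe40* with 170 and *Dbp* with 5.02. In this sample *Tsc22d3* had 2.14 CPM, against 147 or more in each of the others. With all 8 samples in the fit, 0 of 10 clock genes passed the adjusted threshold, and the estimates for *Arntl*, *Npas2*, *Per1* and *Per3* turned from negative to positive (0.12, 0.06, 0.28 and 0.11).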

How the data were processed

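Total RNA of sorted cells was extracted with the RNeasy micro kit and made into NEBNext Single Cell/Low Input libraries. Per the study's methods, the authors trimmed paired-end reads with cutadapt, mapped them to mm10 (GRCm38) with STAR and counted reads per gene with featureCounts at default settings, which ignore strand. The deposited table holds raw counts, not normalized. Many of its entries carry names of the kind that transcript assembly gives, and how these arose was not given in the sources used here.

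Here, counts were tested with edgeR 4.0.16 in R 4.3.3 (TMM factors, filterByExpr, quasi-likelihood test, Benjamini-Hochberg over all 20152 genes tested, threshold 0.05), with male replicates 2 to 4 against 4 females. Levels are CPM with TMM factors over 8 samples. Permutation tests used log2(CPM + 1) with a pseudocount of 1. Alternatives were DESeq2 1.42.0, other scaling factors and count filters, all 8 samples, a replicate block, and leaving out each sample. The members and lists were chosen with earlier results of these data known. Named genes were the 10 members, called pathway genes with *Nr1d1*, *Nr1d2*, *Tef*, *Hlf*, *Bhlhe41* and *Ciart*, at most 4 called genes of each other list, and the 3 genes most like *Arntl* and *Dbp*. Other genes named were chosen after their values were seen. Values of 1 gene on the pathway list, which is in its counts, are not reported here.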

Additional observations from a re-analysis of the deposited data

Results flagged for a closer look

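In 36 groups of 4 samples, Dixon's test of the most distant sample picked out 2, where about 1.8 would be picked out by chance at 5%. In males, *Per3* was at 222 CPM in male replicate 1, while the other 3 samples lay between 98.8 and 105 CPM (gap over range 0.949). *Tef*, the D-box factor, was at 154 CPM in the same sample, and the others were between 75.6 and 86.8 CPM (gap over range 0.858).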

How the results depend on the processing

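Over all genes, 471 passed in edgeR (198 higher in males, 273 lower), 2235 in DESeq2, 808 with library size alone (133 higher, 675 lower, the median log2 fold change moving from −0.03 to −0.24), 177 without the filter on low counts, 67 with all 8 samples, and 88 to 171 when any 1 sample was left out. Of the 10 clock genes, 1 passed in DESeq2 and 0 in every other setting. Of the 23 pathway genes, 1 passed, against 8 in DESeq2, 2 with library size alone (*Tef*, *Timeless*), 0 without the filter, 3 with at least 10 counts in every sample, 0 with all 8 samples, 2 with a robust fit, and 0 to 1 leaving out a sample. Of the 8 glucocorticoid-responsive genes, 1 passed, against 3 in DESeq2, 0 with all 8 samples, and 0 to 1 leaving out a sample. No immediate early gene passed in any setting.

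No pairing by replicate number was seen in the deviations over all tested genes (correlations of same-numbered deviations −0.0283, 0.0021 and −0.0021). Over all pairs of a male and a female sample they ran from −0.0300 to 0.0287. Whether same-numbered samples were collected or processed together cannot be told from these values. With the replicate block on replicates 2 to 4, 0 genes passed (2959 at an unadjusted p under 0.05), hence 0 clock, 0 pathway and 0 glucocorticoid-responsive genes; *Per2* was at 1.53, and *Arntl*, *Per1* and *Cry2* turned to 0.10, 0.80 and −0.0078.

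Of the sex estimates of single genes under the alternatives, 265 of 306 kept direction and call, and 21 reversed, none of them passing. With all 8 samples *Arntl*, *Npas2*, *Per1* and *Per3* reversed (0.12, 0.062, 0.28, 0.11), and with library size alone *Cry2* (−0.14) and *Bhlhe40* (−0.021), relative to that median shift. Leaving out a sample gave −0.47 to 0.25 for *Arntl*, −0.15 to 0.074 for *Clock*, −0.87 to −0.061 for *Npas2*, −0.47 to 0.30 for *Per1*, −0.23 to 0.11 for *Cry1*, −0.16 to 0.22 for *Cry2*, −0.19 to 0.060 for *Hlf* and −0.76 to 0.20 for *Dbp* minus *Arntl*, the latter positive without female replicate 3 or male replicate 4. The mean level of *Per3* in males was 92.1 CPM with library size alone, against 102. The cause of these shifts was not tested. Correlations of *Arntl* with the other members were not run under any setting, as its samples form separate clusters. The lowest counts were those of *Npas2* (53 to 185) and *Dbp* (77 to 182).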
